A study of Caenorhabditis elegans with 2 samples.

Results

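The regions described here are the autosomal ISW-1 peaks of Caenorhabditis elegans whose summit lay in the promoter window of at least 2 protein-coding genes. They were taken from the conservative list of reproducible peaks of the series, on the ce11 build. A promoter window ran from 1000 bp upstream to 500 bp downstream of the outermost annotated start of a gene (Ensembl release 115, WBcel235), and the summit is the base of highest enrichment inside a peak. The rule used positions alone and no signal value. It found 564 peaks, which is 30.5% of the 1848 autosomal peaks and 26.3% of all 2143 peaks of the list. Another 709 autosomal peaks lay in the window of 1 gene, here called single-promoter peaks, and 575 lay in none. Of the 564 shared peaks, 524 had 2 genes, 39 had 3 genes and 1 had 4 genes.

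The series is a ChIP-seq experiment on 1 condition with 2 biological replicates. The animals were strain OP181, in which an integrated transgene (wgIs181) supplies isw-1 fused to TY1, EGFP and 3xFLAG tags together with unc-119(+), in an unc-119(ed3) background. Whole L1 larvae, 6 hours old and starved after bleaching, were used, and per the description the chromatin was precipitated with an antibody against GFP. The labels do not say whether the native isw-1 gene was intact, no untagged strain is among the samples, and whole animals mix all larval cell types, so the values describe a tagged protein averaged over tissues. With 1 condition and 2 replicates no test between conditions was possible, and peaks of one list are not replicates, so the results are counts, shares with 95% Wilson intervals, medians and quartiles, with no p-values.

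ISW-1 is the worm ISWI protein, the motor subunit of remodelling complexes that use ATP to slide nucleosomes and space them evenly. In the compact worm genome many neighbouring genes are transcribed away from each other out of one short intergenic stretch, a divergent promoter, and others lie in operons whose downstream genes have no promoter of their own. Many worm messages are trans-spliced: the first stretch of the transcript, the outron, is replaced by a spliced leader, so an annotated start can be a splice site that lies downstream of the place where transcription begins.

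The DNA under the strongest shared peaks is shown for divergent pairs on chromosomes II to V with no annotated exon inside the stretch. From the 20 strongest shared peaks that overlapped both replicates' own lists, at most 10 that met these conditions were taken, in order of signal. The 6 of highest signal are given. Each line gives the summit base with 60 bases on either side, on the plus strand, 5′ to 3′, with the gene whose start is nearer to the summit named first (sequence from the RefSeq assembly WBcel235, which is ce11). Capitals mark a match to TGCGTCTC, GAGAGAGA, GCGCGAAA, GGGCGG or TATAAA on either strand; a match on the minus strand appears as its reverse complement.
Y22D7AL.10 / hsp-60, chrIII:1619084-1619204: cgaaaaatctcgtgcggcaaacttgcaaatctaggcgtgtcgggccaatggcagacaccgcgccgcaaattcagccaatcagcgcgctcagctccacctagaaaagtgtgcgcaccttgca
Y17G9B.5 / rpl-20, chrIV:4750004-4750124: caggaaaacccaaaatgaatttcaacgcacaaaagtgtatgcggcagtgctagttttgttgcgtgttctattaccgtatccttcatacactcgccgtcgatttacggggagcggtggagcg
tasp-1 / K01G5.10, chrIII:10759185-10759305: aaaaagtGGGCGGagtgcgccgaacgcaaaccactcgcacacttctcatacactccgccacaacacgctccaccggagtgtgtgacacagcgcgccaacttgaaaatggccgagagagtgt
rpl-15 / K11H12.8, chrIV:654869-654989: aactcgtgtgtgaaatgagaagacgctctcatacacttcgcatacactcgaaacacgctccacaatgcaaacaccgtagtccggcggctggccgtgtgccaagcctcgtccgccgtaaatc
Y55F3AR.2 / cct-8, chrIV:1094306-1094426: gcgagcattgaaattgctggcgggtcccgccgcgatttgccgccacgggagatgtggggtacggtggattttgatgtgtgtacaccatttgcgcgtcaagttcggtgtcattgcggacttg
ska-3 / rps-12, chrIII:5679069-5679189: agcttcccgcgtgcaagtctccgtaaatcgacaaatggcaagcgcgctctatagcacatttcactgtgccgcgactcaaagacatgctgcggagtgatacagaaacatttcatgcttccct

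The remaining lines show divergent peaks of high signal and of that kind that carried TGCGTCTC, GAGAGAGA or GCGCGAAA within the stretch, and they serve as examples of where these letters lie relative to the summit.
drr-2 / set-16, chrIII:13643681-13643801: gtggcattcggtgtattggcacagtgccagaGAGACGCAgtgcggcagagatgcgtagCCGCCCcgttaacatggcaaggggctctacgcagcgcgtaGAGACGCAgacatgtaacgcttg
mrps-7 / Y57G11C.3, chrIV:14767845-14767965: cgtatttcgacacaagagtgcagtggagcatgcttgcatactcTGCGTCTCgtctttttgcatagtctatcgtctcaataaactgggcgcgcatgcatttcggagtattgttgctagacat
F44E5.5 / F44E5.4, chrII:11759427-11759547: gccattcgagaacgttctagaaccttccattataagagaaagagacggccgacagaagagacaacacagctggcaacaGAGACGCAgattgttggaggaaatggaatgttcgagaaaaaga
apb-1 / mdt-19, chrIII:2597215-2597335: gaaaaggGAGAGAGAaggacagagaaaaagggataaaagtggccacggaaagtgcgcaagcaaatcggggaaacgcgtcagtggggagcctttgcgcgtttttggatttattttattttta
npp-3 / top-2, chrII:11874806-11874926: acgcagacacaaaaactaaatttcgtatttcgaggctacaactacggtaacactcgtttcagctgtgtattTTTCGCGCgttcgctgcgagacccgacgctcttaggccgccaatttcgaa

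Most shared peaks lay between genes that point away from each other. A divergent pair of 2 genes accounted for 480 of the 564 peaks (85.1%), 2 genes on the same strand for 33 (5.85%), and 2 genes that point towards each other from overlapping starts for 11 (1.95%). These shares depend on the window: the divergent part was 94.4% with a window of 500 bp upstream to 250 bp downstream. With one reaching 2000 bp upstream it was 60.5%. How all gene pairs within reach split into these classes is not given, so the shares are not read as a preference of ISW-1. The last 40 peaks (7.09%) had 3 or more genes, and 39 of these held at least one divergent pair. The 524 peaks with 2 genes belonged to 515 different gene pairs, of which 9 had 2 shared peaks each. In all 480 divergent cases the 2 genes were neighbours in the order of protein-coding starts along the chromosome. This follows largely from the class, which allows only 2 genes. Another protein-coding start between them would mostly have had the summit in its window too. Such a peak counts among those with 3 or more genes.

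The strongest shared peaks included several at genes of protein folding and translation. Signal is the value the authors deposited for each peak, in arbitrary units, and it is used only within a list. The highest value of the whole list, 2624, lay between hsp-60, which encodes the mitochondrial chaperonin, and Y22D7AL.10, which RefSeq annotates as the 10 kDa mitochondrial heat shock protein, the partner co-chaperonin. The overlapping peak had a signal of 1622 in the list of replicate 1 and 1001 in that of replicate 2. The summit was 215 bp from the start of Y22D7AL.10 and 598 bp from the start of hsp-60, which are 813 bp apart. Among other chaperone genes, the peak of cct-8, a subunit of the cytosolic CCT chaperonin, and the thioredoxin domain gene Y55F3AR.2 had a signal of 1353 (777 in replicate 1, 580 in replicate 2). The peak between cct-1, another CCT subunit, and the dishevelled homolog mig-5 had 1193 (776 and 416). The peak between hsp-110, a cytosolic chaperone, and the proteasome lid gene rpn-3 had 1097 (680 and 422). Replicate 1 had the higher value at each of these peaks, as at all of the 20 strongest shared peaks and at 452 of the 458 with a value in both lists. The 2 lists may differ in scale, so this is not read as stronger binding in replicate 1.

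Ribosomal protein genes stood at 9 of the 20 strongest shared peaks that overlapped both replicates' own lists. The second highest of these, with a signal of 2046 (1261 in replicate 1 and 793 in replicate 2), lay 286 bp upstream of rpl-20 and 176 bp upstream of Y17G9B.5, annotated as the mitochondrial ECSIT homolog. The peak of rps-18 had a signal of 1538 (1002 and 529), and its summit lay 550 bp upstream of rps-18 and 135 bp inside sec-61.A, a subunit of the ER protein translocon. Further values were 1380 for rpl-15 with K11H12.8 (881 and 495) and 1376 for rpl-12 with lin-54 (862 and 527), the gene of a DNA-binding subunit of the DRM repressor complex. For rps-19 with the DNA damage response gene hsr-9 the signal was 1376 (835 and 530), and for rps-12 with the kinetochore gene ska-3 it was 1351 (844 and 512). The peak of rpl-7A with the SET domain gene set-21 had 1315 (798 and 528), that of rps-1 with the translational repressor ifet-1 had 1256 (805 and 449), and that of rps-20 with ekl-4, the DMAP1 homolog, had 1150 (684 and 461). In 4 of these 9 peaks the ribosomal protein gene was the nearer gene. High signal at such genes was not particular to shared peaks. The highest single-promoter peak was that of rpl-3, at 2377.5 (1404 and 979), and the next was that of rpl-35, at 1977 (1254 and 732).

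Translation factors followed among the same 20 peaks. The peak of iff-2, which encodes eIF5A, had a signal of 1348 (842 in replicate 1 and 518 in replicate 2) and lay 71 bp from iff-2 and 864 bp from F54C9.14. The peak between eef-1A.1, the elongation factor that brings aminoacyl-tRNA to the ribosome, and rfc-4, a clamp loader subunit of DNA replication, had 1157 (727 and 440). At drr-2, an RRM domain gene, and set-16, a histone methyltransferase gene of the MLL class, the signal was 1199 (738 and 450) and the summit was nearly midway, 171 bp from drr-2 and 175 bp from set-16. The third highest of the 20 lay at tasp-1, the taspase homolog, and K01G5.10, with a signal of 1832 (1089 and 739). Of the 20 peaks, 19 had a divergent pair. The exception was egl-30, which encodes a G protein alpha subunit, with C53H9.4 on the same strand, at 1368 (810 and 557). The last 2 peaks were tag-340 with nhl-2, at 1070 (649 and 407), and scpr-1 with gpap-1, at 1048 (647 and 398). The ratio of the replicate 1 value to the replicate 2 value ran from 1.34 to 1.89 over the 20 peaks, with a median of 1.62. Because the relative scale of the 2 lists is unknown, this ratio does not show a difference in binding.

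**Figure D1:**
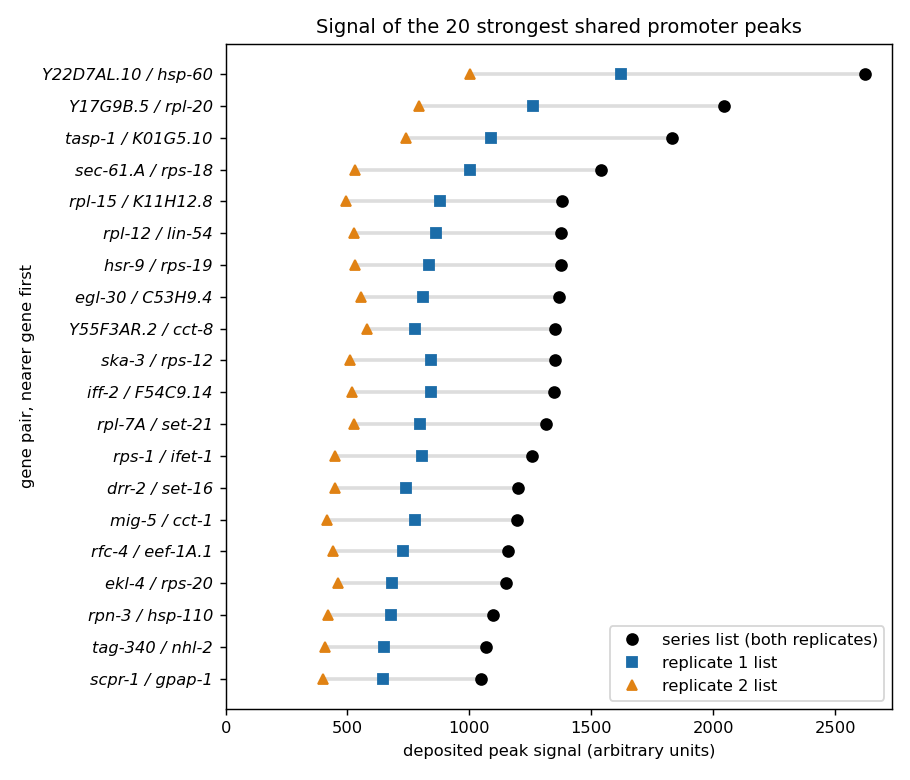
Deposited peak signal (arbitrary units, horizontal axis) of the 20 strongest shared peaks that overlapped both replicates' own lists, one row per gene pair. Squares stand for replicate 1, triangles for replicate 2 and circles for the series' list made from both; every square lies to the right of its triangle, and the top row, Y22D7AL.10 with hsp-60, reaches 2624.

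Over all members the median signal was 249 at shared peaks (quartiles 153 and 431) and 205 at single-promoter peaks (quartiles 135 and 342), a ratio of 1.21. Autosomal peaks in no promoter window had a median of 156. In the replicates' own lists, the overlapping peaks gave the same order: in replicate 1 the median was 175 for shared peaks and 148 for single-promoter peaks (ratio 1.18), and in replicate 2 it was 103 for shared peaks and 91.7 for single-promoter peaks (ratio 1.12). The distributions overlapped over most of their range. Shared peaks filled 45 of the 100 highest places of the list, single-promoter peaks 39 and autosomal peaks outside promoters 13. Among the 535 peaks of highest signal stood 206 shared peaks (36.5% of them) and 185 single-promoter peaks (26.1%). Shared peaks were also narrower, with a median width of 268 bp against 376 bp for single-promoter peaks; 376 bp was the most frequent width in the list, held by 38.8% of shared peaks and 50.6% of single-promoter peaks.

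**Figure D2:**
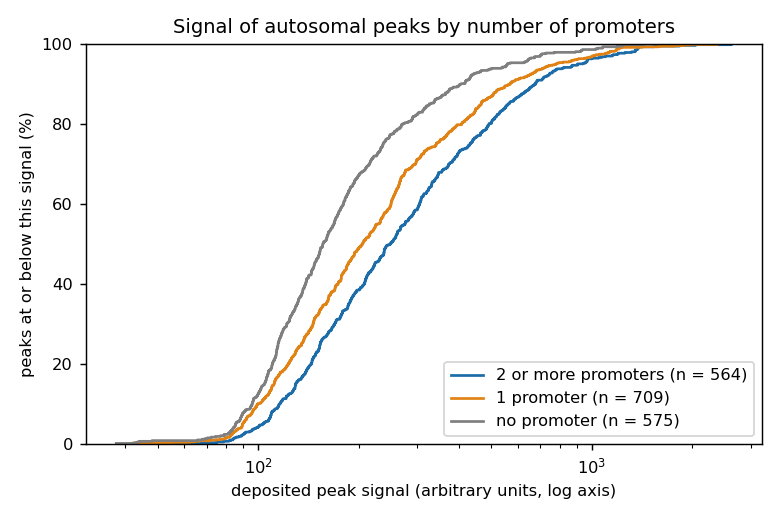
Cumulative share of autosomal peaks (vertical axis, %) at or below a given deposited signal (horizontal axis, log scale, arbitrary units) for peaks at 2 or more promoters, 1 promoter or none. The curve of the 564 shared peaks lies to the right, with a median of 249, and the curve of the 575 peaks outside promoters to the left, with a median of 156.

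Most shared peaks overlapped the own lists of both replicates. The series' list of reproducible peaks was itself derived from these 2 replicates. Agreement with and between the replicates' lists, here and below, is therefore in part built in. A peak of both replicates' own thresholded lists overlapped 458 of the 564 shared peaks (81.2%, interval 77.8% to 84.2%) and 522 of the 709 single-promoter peaks (73.6%, interval 70.3% to 76.7%). Over all 2143 peaks of the list the share was 71.8%. Only 22 shared peaks overlapped neither list. The replicates' summits differed by a median of 12 bp at the 458 shared peaks and by at most 50 bp at 434 of them. At 457 of the 458, both replicates' own summits again fell into the windows of 2 or more genes. The Spearman correlation of signal between the replicates' lists was 0.908 across the 458 shared peaks and 0.882 across 522 single-promoter peaks, as a description across peaks of the same 2 libraries. A small number of entries overlapped another peak of the list (8 shared and 10 single-promoter peaks), and 4 shared peaks had exactly the interval of another entry with a different summit. Such entries take the replicate values of the same stronger peak. Without them the shares in both replicates' lists were 80.9% for shared and 73.5% for single-promoter peaks.

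At divergent pairs the summit usually lay between the starts. The 480 pairs had starts a median of 486.5 bp apart (quartiles 317 and 733 bp, range 9 to 1659 bp). The summit lay between the starts at 445 peaks (92.7%) and inside the nearer gene at 35. The nearer start is by definition the one at the smaller distance. The distance of the summit to the nearer start had a median of 150 bp and to the farther start 338.5 bp, a median difference of 170.5 bp. At 172 peaks (35.8%) the farther start was at least 3 times as far as the nearer one, and at 80 (16.7%) the 2 distances differed by at most 50 bp. Of the 445 summits between starts, 198 (44.5%) fell in the central 33.3% of the gap, and the distance to the nearer start had a median of 31.7% of the gap. The nearer gene was on the plus strand in 247 of 480 pairs. The peak interval itself covered neither start in 265 pairs, 1 start in 171 and both in 44. The nearer start was within 200 bp at 334 peaks and the farther start at 96. At single-promoter peaks the median distance to the start was 237 bp; the nearer of 2 starts is the smaller of 2 values, so the 2 medians are not on equal terms.

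**Figure D3:**
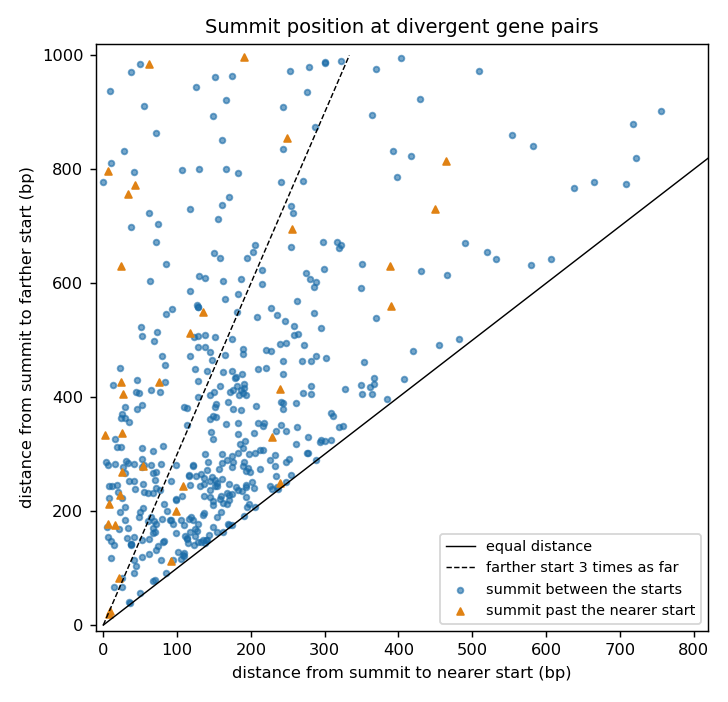
Distance in bp from the summit to the nearer start (horizontal axis) and to the farther start (vertical axis) for the 480 divergent peaks, 1 point each. The solid line marks equal distance, close to which 80 peaks lie within 50 bp, and the dashed line marks a farther start 3 times as far as the nearer; 172 peaks lie on or above it.

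Which gene was nearer was largely the same in the 2 replicates. At 368 of the 389 divergent peaks found in both replicates' lists, both summits were nearer to the same gene (94.6%). The other 21 lay near the midpoint, with a median difference of 11 bp between the 2 distances in the series' list.

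The 3 narrowest and the 3 widest divergent pairs had signals from 85.9 to 422, and at cdc-37 with W08F4.3 and C04G6.2 with pld-1 the signal was below the lower quartile of divergent peaks, 153. The 3 narrowest were cdc-37 with W08F4.3 (9 bp apart, signal 85.9, in neither replicate's list), F32D8.5 with F32D8.14 (12 bp, signal 234) and F25H9.7 with F25H9.6 (15 bp, signal 422). The 3 widest were ipla-6 with mif-4 (1659 bp, signal 283), rab-5 with nmat-2 (1598 bp, signal 280) and C04G6.2 with pld-1 (1541 bp, signal 117). Across the 480 pairs the Spearman correlation of signal with the distance between starts was 0.014 and with the distance to the nearer start 0.107. The median signal was 198 for the 68 pairs at most 250 bp apart and 261 for the 179 pairs from 251 to 500 bp apart. It was 245, 241 and 276 for pairs from 501 to 750 bp, 751 to 1000 bp and over 1000 bp.

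Seen from the genome, 511 of the 2382 divergent neighbour pairs on the autosomes with starts at most 2000 bp apart had a shared peak, which is 21.5%. By spacing, it was 21.6% for pairs up to 250 bp apart (78 of 361), 37.3% from 251 to 500 bp (193 of 517, interval 33.3% to 41.6%), 29.0% from 501 to 750 bp and 20.2% from 751 to 1000 bp. Beyond 1000 bp the 2 windows no longer cover the whole gap from both sides, and the shares of 9.60%, 6.77%, 2.70% and 0 in the following 250 bp steps are limited by that reach. Up to 1000 bp a summit in the gap falls into both windows by construction: of the pairs with any summit in either window, 96.3% to 100% had a shared one. The stretch that lies in both windows, gap and gene ends together, is longest for starts 500 bp apart. It is shorter for closer and for wider pairs, so the shares by spacing are not on equal terms up to 1000 bp either. Pairs with a shared peak had a median spacing of 476 bp and pairs without one 755 bp. These medians include pairs over 1000 bp apart, so the reach of the windows in part sets their difference. At the upper edge of the window, 26 peaks upstream of both starts had the second start 901 to 1000 bp away, with a median signal of 239, and 19 single-promoter peaks had it in the next 100 bp, with a median of 216. The members closest inside were kars-1 with kat-1, F13G3.10 with mif-3 and C50B6.3 with nasp-2, with second starts at 996, 994 and 991 bp. The peaks closest outside were mys-1 with VC5.2 and nfm-1 with anmt-2, both at 1003 bp, and T10E9.2 with T10E9.8 at 1004 bp.

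**Figure D4:**
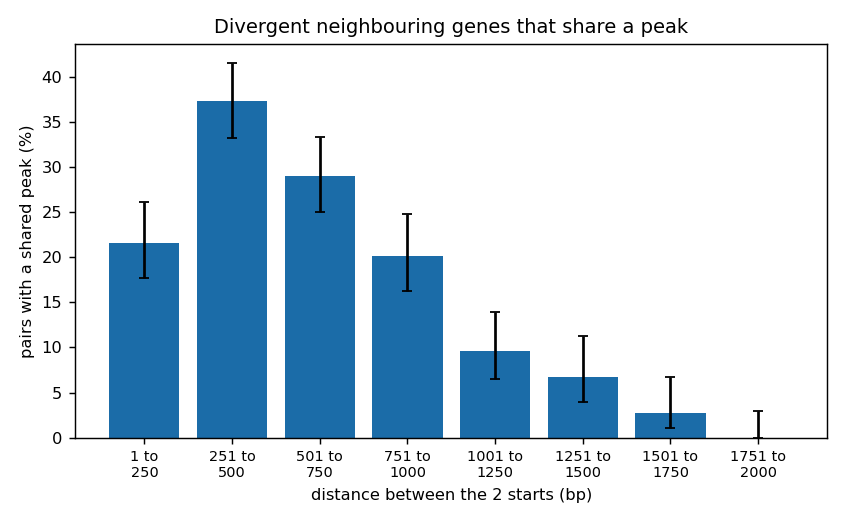
Share of divergent neighbouring gene pairs on the autosomes that had a shared peak (vertical axis, %), by the distance between the 2 starts in 250 bp steps (horizontal axis, bp). Bars are shares and whiskers 95% Wilson intervals; the highest bar is 37.3% at 251 to 500 bp, and no pair from 1751 to 2000 bp apart had one.

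The share of promoter peaks with more than 1 gene was alike on the 5 autosomes and lower on X. Of 1273 autosomal promoter peaks 44.3% were shared, with 47.1% on III as the highest and 41.0% on II as the lowest of the autosomes, whose intervals overlapped. On X, which is outside the rule, 15 of 145 promoter peaks were shared (10.3%, interval 6.37% to 16.4%). The density of shared peaks ran from 4.59 per Mb on V to 9.94 per Mb on III, and was 0.847 per Mb on X. How often genes on X have a second start within reach is not given, and neighbour pairs were counted on the autosomes only. The lower share and density on X are therefore not read as a trait of ISW-1 binding there. The median signal of shared peaks ran from 229 on V to 267 on I. The median spacing of divergent pairs was 431.5 bp on V and between 492 and 498 bp on the other autosomes.

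At the 33 pairs of genes on the same strand the summit was upstream of both starts in 28 and nearer to the upstream gene in 31. A summit upstream of both starts is nearer to the upstream gene by geometry, and the window reaches farther upstream than downstream, so these counts follow in part from the rule. In 20 pairs the genes did not overlap; the others overlap in the annotation, and in 10 the starts were at most 200 bp apart. After egl-30, the highest signals were 968 at rps-28 with Y41D4B.4 (626 in replicate 1 and 339 in replicate 2), where the summit was 440 bp upstream of rps-28, and 731 at sec-61.G, the gamma subunit of the translocon, with the phosphomevalonate kinase gene F32D8.13 (443 and 302). The next was 716 at ddp-1, which encodes a chaperone of mitochondrial protein import, with ttc-7 (463 and 265). For such pairs a second window says that a start lies close by, not that the second gene is transcribed from this promoter. The overlapping head-to-head pairs were led by Y17G7B.20 with ash-2, a subunit of histone H3K4 methyltransferase complexes, at 492 (308 and 213), and Y54E10BR.2 with the RNA polymerase II subunit gene rpb-7, at 395 (223 and 173). In the second of these the summit was 9 bp upstream of Y54E10BR.2 and 12 bp inside rpb-7. The others named were mrps-35 with sws-1 at 233 and abcf-3 with F42A10.5 at 232.

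The peaks with 3 or more genes had a median signal of 265 and a median of 978.5 bp between their outermost starts. The highest were 969 at ant-1.1, the ADP/ATP translocase gene, with T27E9.2 and abcf-2 (651 in replicate 1 and 329 in replicate 2), and 942 at rbc-2 with Y54F10AM.15 and the complex I gene ndua-8 (600 and 340). They were followed by 907 at K10D2.5 with prp-19, a core splicing factor, and emb-1, a subunit of the anaphase-promoting complex (532 and 371). The peak of cux-7, C07H6.2 and the DNA ligase IV gene lig-4 had 776 (470 and 313), and its summit was 10 bp from cux-7. Of the 9 pairs with 2 shared peaks, 4 had peaks that overlap each other. The highest by summed signal was pqn-51 with K11D12.14, whose peaks of 617 and 197 share one interval, and next came ecps-1 with atx-2, whose peaks do not overlap. There the stronger peak (464, with 300 in replicate 1 and 160 in replicate 2) lay 215 bp from ecps-1, a gene of the Ecm29 type, and the weaker one (253, with 187 and 102) lay 42 bp from atx-2, the ataxin-2 homolog. The pair mdt-26 with ift-43 had peaks of 519 and 78.7 with one interval, and M117.3 with par-5, both annotated as genes of 14-3-3 proteins, had 309 and 171. The lowest signals among the members were 46.2 at klc-1 with let-70 and 62.6 at mars-1 with F58B3.6, each a weak entry that touches a stronger one (430 and 370), and 75.1 at ife-3 with B0348.10, found in neither replicate's list.

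Genes of the basic cell machinery were frequent at shared peaks. Of the 17242 autosomal protein-coding genes, 1838 (10.7%) had a summit in their window, and 1151 of these (62.6%) had a shared peak. A shared peak brings in 2 or more genes and a single-promoter peak 1, so the size of this share follows largely from the counting. The gene lists were built from gene symbols by known function. Of the 31 genes of small ribosomal subunit proteins 20 were at a shared peak and 9 only at single-promoter peaks, and of the 48 genes of large subunit proteins 29 and 12. Of the 8 CCT chaperonin genes 6 were at a shared peak and the other 2 had no peak. Shared peaks held 18 of 40 translation factor genes, with iff-2, eef-1A.1 and eef-2 (signal 786) the highest, 14 of 33 proteasome genes and 26 of 70 splicing genes. They held 12 of 27 genes of ribosome biogenesis, among them fib-1, the fibrillarin gene, at 738 (490 in replicate 1 and 238 in replicate 2). Mitochondrial ribosomal protein genes (16 of 71) and oxidative phosphorylation genes (16 of 62) had a smaller share; mrps-7 at 760 and atp-1, the alpha subunit of ATP synthase, at 1002 were their highest. Among the genes with a summit in their window, the share with a shared peak was 70.7% for large and 69.0% for small ribosomal subunit proteins, 73.7% for the proteasome and 74.3% for splicing, next to 62.6% for all such genes. It was 36.8% for ubiquitin conjugation (7 genes at a shared peak and 12 only at single-promoter peaks), 50% for mitochondrial import and 54.2% for the nuclear pore. For cell cycle and replication it was 57.7%, for chromatin genes 58.1% and for RNA polymerase II, Mediator and Integrator 64%. The remaining lists of this kind ran from 69.2% for translation factors to 100% for CCT. How many genes of each list have a divergent neighbour close by is not given, so these shares are not read as a preference.

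Genes of tissue-specific and environmental functions were rare at shared peaks, as at peaks of any kind. The counts at shared peaks were 4 of 138 cuticle collagens, 6 of 305 F-box genes, 2 of 246 nuclear hormone receptors, 1 of 237 C-type lectins, 1 of 106 neuropeptides, 1 of 70 homeobox and bHLH factors and 4 of 1267 chemoreceptors. Over all 17242 autosomal genes, 1151 had a shared peak (6.68%). These families seldom had a summit in the window at all: 4.35% of the collagens, 2.62% of the F-box genes and 0.474% of the chemoreceptors did. Among the few members with a summit, the part with a shared peak was 66.7% for collagens (4 of 6), 75% for F-box genes (6 of 8) and 66.7% for chemoreceptors (4 of 6), beside 62.6% of all genes with a summit. It was 50% for nuclear hormone receptors, 50% for C-type lectins and 20% for homeobox and bHLH factors. The only neuropeptide gene with a summit had a shared peak. With so few genes these shares are uncertain. Some members of these families shared their peak with a gene of the basic machinery. The collagen gene col-38 shared a peak of 744 (482 in replicate 1 and 262 in replicate 2) with rpl-5, at 432 bp from col-38 and 407 bp from rpl-5. The nuclear receptor gene nhr-47 shared one of 521 (311 and 194) with the DnaJ gene dnj-19. The F-box gene fbxa-90, 964 bp from the summit, shared one of 530 (354 and 174) with efl-1, an E2F factor. Others had partners of another kind. The F-box gene fbxa-153 shared a peak of 131 (88.0 and 51.8) with the chemoreceptor gene str-12. The chemoreceptor gene srh-89 shared one of 211 (150 and 64.2) with the BTB domain gene F25E5.1. Partners were not counted by kind.

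**Figure D5:**
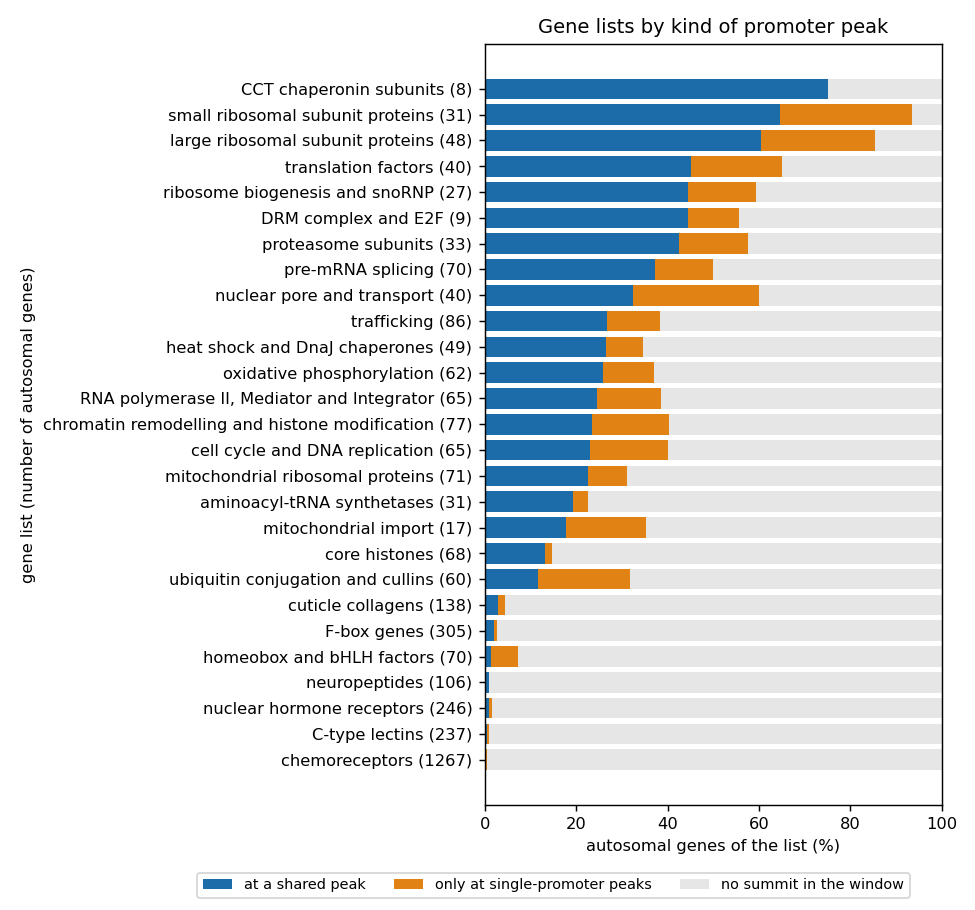
Autosomal genes of each list (rows, with the number of genes in brackets) as a share of the list (horizontal axis, %) that had a shared peak, only single-promoter peaks, or no summit in the window. CCT and ribosomal protein genes stand at the top, with 6 of 8, 20 of 31 and 29 of 48 genes at a shared peak, and chemoreceptors at the bottom with 4 of 1267.

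Of the 564 shared peaks, 258 had at least 1 gene of a list, 44 had 2 or more, and 9 had 2 genes of the same list. No such counts are given for other peaks or gene pairs, so these are not read as a trait of shared peaks. The lists go by gene symbol, and the 9 leave out pairs of like function such as hsp-60 with Y22D7AL.10 and F44E5.5 with F44E5.4. The large and the small ribosomal subunit met at 3 peaks: rps-14 with rpl-36 (signal 679, 433 in replicate 1 and 239 in replicate 2), rpl-24.1 with rps-10 (542, 317 and 225) and rpl-39 with rps-30 (490, 304 and 191). The splicing factor genes rsp-1 and rsp-2 shared a peak of 477 (294 and 177), and rsp-5 shared one of 189 with snr-3, the gene of an Sm protein. The replication origin gene orc-5 and the cyclin B gene cyb-1 shared one of 324 (182 and 129). Core histone genes met at 4 peaks: his-68 with his-67 (H2A and H4, signal 242, 149 and 101), his-61 with his-62 (H2A and H2B, 153), his-41 with his-35 (H2B and H2A, 138) and his-5 with his-6 (H4 and H3, 123). The last 3 of these overlapped only replicate 1. Heat shock genes met at hsp-16.41 with hsp-16.2, at 115, in neither replicate's list, and F44E5.5 and F44E5.4, both annotated as HSP70, shared a peak of 659 (435 and 230) with its summit 175 and 176 bp from the starts. Histone, hsp-16 and HSP70 genes occur as near-identical copies, and how reads that fit several copies were treated is not given in the sources used here, so their values are uncertain.

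Ribosomal protein genes were more often the farther of the pair. At the 40 divergent peaks with 1 such gene it was the nearer gene in 13. The median distance from the summit was 312.5 bp to the ribosomal protein gene (quartiles 254.5 and 407 bp) and 188.5 bp to its partner (quartiles 137 and 303 bp). None of the 6 CCT genes at divergent peaks was the nearer gene. Nuclear pore genes were nearer at 2 of 12 divergent peaks and proteasome genes at 10 of 13. Splicing genes were nearer at 10 of 23, translation factors at 7 of 16, trafficking genes at 8 of 18 and aminoacyl-tRNA synthetases at 6 of 7. One gene of each pair is nearer by definition, and the counts per list are small. TTTCAG, the worm consensus of a splice acceptor, ended within 10 bp upstream of the start at 23 of the 40 ribosomal protein genes and at 6 of the 40 partners. The ribosomal protein gene was the nearer gene at 6 of the 23 peaks where it had these letters and at 7 of the 17 where it did not, and the median distance from the summit to it was 351 bp with the letters and 300 bp without. Over all divergent peaks the same letters stood at 244 of 960 starts (25.4%), against 14.2% of all autosomal protein-coding genes. The summit was a median of 265.5 bp from starts with TTTCAG and 211.5 bp from starts without it. In the 198 pairs with TTTCAG at 1 start only, that start was the farther one in 132. Whether the letters account for the distances was not tested.

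The DNA at the summits of shared peaks was richer in G and C than at divergent promoters without a peak. Within 100 bp of the summit the GC content averaged 40.1% ± 6.51 at shared peaks (SD, n = 564 peaks), 42.4% ± 7.10 at single-promoter peaks (SD, n = 709), and 33.7% ± 6.45 around the midpoints of 1780 divergent pairs with no summit in either window (SD over pairs).

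The short sequences marked in capitals above were counted around the summits. TGCGTCTC occurred within 100 bp of the summit, on either strand, at 48 of 564 shared peaks (8.51%, interval 6.48% to 11.1%), 120 of 709 single-promoter peaks (16.9%, interval 14.3% to 19.9%), and 1.18% of the midpoints of pairs with no summit. It occurred in 2.73% of all autosomal promoters, taken as a stretch of the same length centred 150 bp upstream of the start. GAGAGAGA occurred at 3.90% of shared and 10.01% of single-promoter peaks, with 1.52% at those midpoints and 2.59% of all promoters. GCGCGAAA, which reads like a binding site of the E2F family, occurred at 4.79% of shared and 3.95% of single-promoter peaks, with 1.01% at those midpoints and 0.986% of all promoters. GGGCGG occurred at 10.8% and 10.3%, with 4.83% at those midpoints and 5.50% of all promoters. TATAAA occurred at 15.1% of shared and 16.1% of single-promoter peaks, and at 27.8% of those midpoints and 25.9% of all promoters. The GC content differs between these sets too, and its part in the shares was not tested. The median signal was 294 at the 48 shared peaks with TGCGTCTC and 241 at the 516 without it, while the lower quartile was 151 with it and 154 without. For GAGAGAGA the median was 216 at the 22 shared peaks with it and 249.6 at the 542 without, and for GCGCGAAA it was 259 at the 27 with it and 248 at the 537 without. The peak of drr-2 with set-16 had TGCGTCTC at both sides of the summit, as its line above shows. A match is a description of the letters and not evidence of a bound factor.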

How the data were processed

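Each replicate of the tagged strain has a ranked and a thresholded peak list, and the series has lists derived from both replicates, per the notes deposited with the samples. Which aligner and peak caller were used, and against which control, is not given in the sources used here. The signal in column 7 of each list is the authors' own value per peak, as deposited; the lists give no counts of reads, and sequencing depth is therefore unknown. Shares have 95% Wilson intervals, which reflect only how many peaks or genes were counted. The series' ranked lists also hold 16 unlabelled columns of sample values, which were left out.

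Summits (start plus offset) of the conservative thresholded list were placed against the starts of Ensembl release 115 protein-coding genes, with genome sequence from the RefSeq copy of WBcel235, the build of the files (ce11). Overlap between lists needed 1 bp, and the highest signal was taken where several peaks overlapped. Membership was tested on simulated summits and checked with bedtools 2.31.1; other steps used Python 3.11.15, pandas 2.3.3, numpy 2.4.6 and scipy 1.17.1. Product names come from RefSeq.

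The members, gene lists and short sequences were chosen with earlier results of these data known. The rule for named peaks took the 20 shared peaks of highest signal found in both replicates' lists, the first 4 of each other class, the 3 narrowest, widest and lowest, up to 3 genes per list and the pairs within lists, the window's edge cases, and pairs with more than 1 shared peak. Alternatives were other peak lists, each replicate's own list, a stricter signal, other windows and starts, the peak interval in place of the summit, each autosome left out, and other overlaps and flanks.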

Additional observations from a re-analysis of the deposited data

How the results depend on the processing

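The direction of the signal difference held under all alternatives run: the ratio of median signal, shared over single-promoter peaks, was 1.21 and ran from 1.12 to 1.15 in the replicates' own lists. It was 1.13 above the median signal, 1.13 with the window of 500 bp upstream to 250 bp downstream, 1.28 with any transcript start and 1.19 with any base of the peak in the window. Without one chromosome it was 1.14 (I), 1.18 (II), 1.25 (IV) and 1.27 (V). The number of shared peaks fell to 361 above the median signal, where fewer peaks enter. The shared part of promoter peaks, 44.3%, was 48.5% above the median signal, 35.5% with the narrow window and 55.2% with one reaching 2000 bp upstream. The divergent part, 85.1%, was 94.4% with the narrow window, 60.5% with the wide one and 81.2% with any base of the peak. The median spacing, 486.5 bp, ran from 487.5 to 504.5 bp in the replicates' lists and was 395 bp with the narrow window, 659 bp with the wide one and 516 bp with any base. The share of neighbour pairs, 21.5%, ran from 18.9% to 21.3% in the replicates' lists. It was 13.9% above the median signal, 15.95% with the narrow and 24.9% with the wide window, and 19.8% without I, 19.5% without III and 24.96% without V. In the ranked lists 99.5% of shared peaks overlapped both replicates. The median distance to the nearer start ran from 135 to 164 bp. A count was taken as moved when it changed by over 1.5 times and a share when it left the 95% Wilson interval of its main value. A median or the ratio was taken as moved when it changed by over 1 SD of the replicates. By these limits 42 of the recomputed values moved and 79 did not. For the median distance to the nearer start both replicates gave 148 bp, so any change at all counted as moved, also 149.5 bp against 150 bp. The 42 include every alternative of that distance, and for it the label does not measure robustness. The cause was not tested beyond what each change of window or list sets by construction. No paired analysis was possible because the series has 1 group. Depth is unknown, so a promoter without a peak cannot be called unbound.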

Other observations

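Beyond the sequences counted above, all 8-base sequences were ranked by how much more often they occurred within 100 bp of the summit at the 430 shared peaks on II to V than at the midpoints of divergent pairs with no summit there, and the leading ones were then counted on the remaining autosome. They were chosen after their values were seen. GCAAACAC was present at 10.5% of shared peaks on II to V and 2.61% of the midpoints there; on the chromosome not used for the choice it was present at 16 of 134 shared peaks (11.9%) and 2.12% of midpoints. AAACGCGC was present at 9.07% of shared peaks and 0.935% of midpoints on II to V, and at 12 of 134 shared peaks (8.96%) and 2.83% of midpoints on the remaining autosome. CGTAAATC was present at 11.4% of shared peaks and 1.20% of midpoints on II to V, and at 6 of 134 shared peaks (4.48%) and 2.83% of midpoints on the remaining autosome. AAAATAAA was present at 29.1% of shared peaks on II to V and 15.2% of midpoints, and at 23.9% and 20.1% on the remaining autosome. At single-promoter peaks the shares were 10.7% for GCAAACAC, 10.3% for AAACGCGC, 5.22% for CGTAAATC and 12.6% for AAAATAAA.

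A start of a non-coding gene or pseudogene lay between the starts of 73 of the 480 divergent pairs (15.2%), in 65 pairs that of an ncRNA.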
